A study of Mus musculus with 2 samples.

Results

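The 9 genes described here belong to the muscle atrophy pathway and were followed in single nuclei of mouse calf muscle, after the loss of a nuclear envelope protein. They are the ubiquitin ligase genes Fbxo32 (atrogin-1), Trim63 (MuRF1), Trim54 (MuRF3), Trim55 (MuRF2) and Fbxo30 (MUSA1), the transcription factor genes Foxo1, Foxo3 and Foxo4, and the AMP deaminase gene Ampd3. These 9 of 27998 genes were taken by symbol, each symbol matched 1 row, and the rule used no measured value. Single-nucleus RNA sequencing (snRNA-Seq) of gastrocnemius-plantaris (GP) muscle yielded a single library from control mice (Ctrl) and another from Net39 conditional knockout mice (cKO). Ctrl mice were Net39 fl/fl without Cre, and cKO mice were HSA-CreERT2; Net39 fl/fl. Both groups were 5 months old and had received tamoxifen 3 months before. The floxed allele was made in B6C3F1 zygotes and crossed to C57BL/6N, and the Cre is driven by the human skeletal actin promoter, which is active in muscle fibers but not in satellite cells. Each library is listed as a pool of 3 muscles, although the titles name a single mouse, so a library is 1 sample. No test was possible, because each group had 1 library, and every interval below is a 95% exact interval that covers counting error only, not the spread between mice.

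Muscle atrophy is driven in large part by the ubiquitin-proteasome system, in which an E3 ligase marks a protein for degradation. Atrogin-1 is the substrate-binding subunit of an SCF ligase, and MuRF1 is a RING finger ligase that binds sarcomeric proteins. Both genes are classically induced in wasting muscle by Foxo factors, which enter the nucleus when insulin and Akt signaling is low, and by glucocorticoids through their receptor. MuRF2 and MuRF3 are close relatives of MuRF1 that bind microtubules and the sarcomere, and MUSA1 is another F-box ligase of atrophy. AMP deaminase 3 removes the amino group of AMP, and its transcript is known to increase in denervated muscle.

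The upstream sequence of Trim63 is shown because it holds the letters of a Foxo core and of a glucocorticoid element side by side. Of the 9 genes, 6 had a RefSeq promoter window on GRCm38.p6, in 8 windows that each run from 250 bases before to 50 bases after the start of the transcript. Fbxo32, Trim55 and Foxo4 had none. Only the Trim63 window, on the plus strand, held the Foxo core TGTTTAC or a glucocorticoid element, searched as GNACA and TGTNC with 3 bases between them, on either strand. The glucocorticoid element lies at positions −208 to −196 from the start site, and the Foxo core at −194 to −188, so 1 base separates them and they do not overlap. Among all 32851 promoter windows of the same length, 3.65% held the Foxo core and 0.475% held the glucocorticoid element. Both were present in 5 windows, and only the Trim63 window had them within 5 bases of each other. The bases before the start site are shown for Trim63 (chr4:134314870-134315119), with both matches in capitals, and for its relative Trim54 (chr5:31116362-31116611), whose window had neither.
Trim63: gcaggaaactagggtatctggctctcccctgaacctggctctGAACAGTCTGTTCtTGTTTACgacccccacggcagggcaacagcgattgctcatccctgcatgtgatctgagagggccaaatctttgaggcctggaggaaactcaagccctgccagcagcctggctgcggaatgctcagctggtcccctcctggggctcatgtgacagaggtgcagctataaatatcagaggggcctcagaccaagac
Trim54: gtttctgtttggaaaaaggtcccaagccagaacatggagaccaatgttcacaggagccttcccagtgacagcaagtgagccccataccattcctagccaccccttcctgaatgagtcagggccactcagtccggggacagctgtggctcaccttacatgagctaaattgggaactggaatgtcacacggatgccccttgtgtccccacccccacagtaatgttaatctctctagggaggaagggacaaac
The match is a description of these letters and does not show whether a factor was bound there.

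The libraries held 8446070 to 10410316 unique molecular identifiers (UMIs, 1 per captured RNA molecule) in 3863 Ctrl and 3994 cKO barcodes, of which 5 occurred in both. After filtering and removal of likely doublets, 2984 Ctrl and 3290 cKO myonuclei remained, with medians of 2141.5 and 1643.5 UMIs per nucleus. Levels are given as CPM, the UMIs of a gene per 1000000 UMIs of a class of nuclei. Myh4, the myosin of type IIb fibers, had a Ctrl level of 2134 CPM and a cKO level of 1977 CPM over all myonuclei, and over all measured genes the cKO over Ctrl ratio had a log2 median of −0.08. The targeted gene Plpp7, which encodes Net39, had a Ctrl level of 52.0 CPM (47.1 to 57.3) and a cKO level of 41.8 CPM (37.1 to 47.0). The assay reads 3′ ends and loxP sites flank the first exon, and how far this level reflects the deletion was not tested. The paper reports reduced Net39 mRNA by bulk RNA-Seq and reduced protein by Western blot in cKO muscle. Within type I-like nuclei, Plpp7 was lower in cKO (10.5 CPM) than in Ctrl (45.1 CPM). Among nuclei with Myh4 as main myosin it was not lower in cKO (62.1 CPM, against 54.9 CPM for Ctrl). Marker lists of 8 cell types from outside the fibers summed to between 11.6 and 289 CPM in Ctrl myonuclei and between 8.16 and 284 CPM in cKO myonuclei, and 6 of the 8 sums were lower in cKO. Their part in the results was not tested.

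Among the E3 ligases, Fbxo32 and Trim63 were both lower in cKO myonuclei, while Trim54, Trim55 and Fbxo30 differed less and not in 1 direction. Fbxo32 (chromosome 15, 58175879 to 58214932, minus strand) had a Ctrl level of 1335 CPM (1310 to 1361, 10477 UMIs) and a cKO level of 499 CPM (482 to 516, 3362 UMIs). Trim63 (chromosome 4, 134315120 to 134329629, plus strand) had a Ctrl level of 1515 CPM (1488 to 1543, 11891 UMIs) and a cKO level of 619 CPM (601 to 638, 4174 UMIs). The log2 ratios were −1.42 for Fbxo32 (−1.48 to −1.36) and −1.29 for Trim63 (−1.34 to −1.24), so the cKO levels were 0.374 and 0.409 of the Ctrl levels. Trim54 (chromosome 5, 31116712 to 31137630) had a Ctrl level of 252 CPM and a cKO level of 187 CPM, a log2 ratio of −0.43 (−0.53 to −0.33). Trim55 (chromosome 3, 19644474 to 19692421) had a Ctrl level of 150.4 CPM and a cKO level of 173 CPM, a log2 ratio of 0.21 (0.09 to 0.32). The 3 MuRF genes thus differed in their ratios, which lay far below 0 for Trim63, moderately below for Trim54 and slightly above for Trim55. Fbxo30 (chromosome 10, 11281330 to 11298052) had 94 Ctrl and 132 cKO UMIs, or 11.98 and 19.6 CPM, a log2 ratio of 0.71 (0.32 to 1.11). When each nucleus was thinned at random to 500 UMIs, Trim54 was at −0.16 (−0.38 to 0.06) and Trim55 at 0.24 (−0.02 to 0.50). Fbxo30 was then at 0.57 (−0.30 to 1.47), so these 3 genes were not separable from 0 after thinning.

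Among the Foxo factors, Foxo1 was lower in cKO by about the same ratio as the 2 ligases, and Foxo3 was not. Foxo1 (chromosome 3, 52268336 to 52353221, plus strand) had a Ctrl level of 574 CPM (557 to 591, 4501 UMIs) and a cKO level of 229 CPM (218 to 241, 1546 UMIs). Its log2 ratio was −1.32 (−1.41 to −1.24). Foxo3 (chromosome 10, 42181841 to 42276755, minus strand) had a Ctrl level of 121 CPM (113 to 129) and a cKO level of 99.98 CPM (92.6 to 108), a log2 ratio of −0.27 (−0.42 to −0.13). The interval of Foxo3 lay wholly above that of Foxo1, and after thinning to 500 UMIs Foxo3 was at −0.17 (−0.48 to 0.15). Foxo4 (chromosome X, 101254528 to 101260873) had 25 Ctrl and 11 cKO UMIs, and its log2 ratio of −0.97 (−2.14 to 0.11) did not separate the libraries at this depth.

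Ampd3 (chromosome 7, 110768206 to 110812405, plus strand) was higher in cKO, opposite to Fbxo32 and Trim63. It had a Ctrl level of 18.7 CPM (15.8 to 22.0, 147 UMIs) and a cKO level of 42.6 CPM (37.8 to 47.8, 287 UMIs), and its log2 ratio was 1.18 (0.89 to 1.48). Of the 8 genes with at least 50 UMIs over both libraries, 3 were lower in cKO past 2-fold (Fbxo32, Trim63 and Foxo1), where 3.16% of all 9265 measured genes were. In the other direction 1 of the 8 was past 2-fold (Ampd3), where 3.21% of all genes were. The value of Ampd3 depended on which nuclei were counted and how they were weighted. It was 0.93 as the mean over each nucleus's own CPM. It was 0.80 on the log2 scale when both libraries were given the fiber class shares of Ctrl, 0.72 when each nucleus was thinned to 500 UMIs, and 0.63 without the type I-like cluster, which held 198 Ctrl and 961 cKO nuclei. Of the 287 Ampd3 UMIs of cKO myonuclei, 180 lay in that cluster.

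The same picture was seen as shares of nuclei. To set aside the difference in depth, each nucleus was thinned at random to 500 UMIs. Fbxo32 was then detected in 42.6% of Ctrl myonuclei (40.8 to 44.4) and 20.9% of cKO myonuclei (19.5 to 22.3). Before thinning the shares were 79.5% and 48.5%. Trim63 was detected in 47.2% (45.4 to 49.0) and 22.8% (21.4 to 24.3), and in 83.0% and 50.5% before thinning. For Foxo1 the thinned shares were 24.4% (22.9 to 26.0) and 10.3% (9.31 to 11.4), and the unthinned shares 61.3% and 28.8%. In nuclei from outside the fibers, whose median depth was 1288.5 UMIs in Ctrl and 1177 in cKO, the thinned shares were 14.0% and 8.52% for Fbxo32 and 16.4% and 8.52% for Trim63. The 170 Ctrl and 127 cKO endothelial-like nuclei, with median depths of 1190.5 and 1170 UMIs, had the higher shares among these. In them Fbxo32 was detected in 15.3% (10.2 to 21.6) and 14.2% (8.62 to 21.5), and Trim63 in 18.2% (12.7 to 24.9) and 14.2% (8.62 to 21.5). The Ctrl myonuclei lay above these intervals for both genes, whereas in cKO the intervals of myonuclei and endothelial-like nuclei overlapped for both.

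Levels were then read by the main myosin of the nucleus, that is the 1 of Myh7 (type I), Myh2 (type IIa), Myh1 (type IIx) and Myh4 (type IIb) that held 60% or more of the UMIs of these 4 genes, in nuclei with 3 or more such UMIs. Ctrl had 19, 166, 301 and 1910 such nuclei in this order, and cKO had 275, 325, 381 and 1423. A further 131 Ctrl and 208 cKO nuclei mixed their myosins, and 457 and 678 had too few myosin UMIs. The Ctrl values of the Myh7 class rest on 19 nuclei and are correspondingly wide. The same class drew on clusters to a different degree in each library. The type I-like cluster held 10.2% of Ctrl and 28.9% of cKO Myh2 nuclei, 11.96% and 28.6% of Myh1 nuclei, and 2.72% and 5.69% of Myh4 nuclei, while the Plekhh1-led cluster described further on held 6.54% of Ctrl and 0.773% of cKO Myh4 nuclei. Most nuclei of the type I-like cluster did not have Myh7 as main myosin. Of its 198 Ctrl nuclei 18 had Myh7 and 52 had Myh4, and of its 961 cKO nuclei 273 had Myh7 and 81 had Myh4. Some class values without either cluster or after thinning to 500 UMIs are given beside the levels, and not all that moved are listed. Thinning either kept the classes or called them again from the thinned UMIs, which left 61 Myh2, 102 Myh1 and 382 Myh4 nuclei in Ctrl and 118, 162 and 535 in cKO.

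Fbxo32 was highest in Myh4 nuclei of Ctrl, and the classes lay closer together in cKO. In Ctrl it was at 420 CPM in Myh7 nuclei (245 to 673), 754 in Myh2 nuclei (672 to 843), 929 in Myh1 nuclei (863 to 999) and 1452 in Myh4 nuclei (1420 to 1485). Of neighbors in this order, only the intervals of Myh7 and Myh2 nuclei touched. The order of Myh2 and Myh1 nuclei did not hold as shares, since after thinning 32.5% of Myh2 nuclei (25.5 to 40.2), 29.6% of Myh1 nuclei (24.5 to 35.1) and 45.8% of Myh4 nuclei (43.6 to 48.1) had a UMI. Myh1 over Myh4 nuclei gave a Ctrl log2 ratio of −0.64, which was −0.48 without the Plekhh1-led cluster, −0.72 after thinning, and −0.22 (−0.66 to 0.21) when the classes were also called from the thinned UMIs. In cKO it was at 356 CPM (310 to 406), 379 CPM (334 to 428), 518 CPM (471 to 567) and 556 CPM (530 to 584) in the same order. The intervals of Myh7 and Myh2 nuclei overlapped, as did those of Myh1 and Myh4 nuclei. Myh2 over Myh4 nuclei gave a cKO log2 ratio of −0.56, which was −0.40 after thinning and −0.06 (−0.69 to 0.53) with classes from the thinned UMIs. The log2 ratio of cKO over Ctrl was −1.38 in Myh4 nuclei (−1.46 to −1.31), −0.84 in Myh1 nuclei (−1.02 to −0.67), −0.99 in Myh2 nuclei (−1.24 to −0.75) and −0.24 in Myh7 nuclei (−0.95 to 0.57). The Myh4 value was −1.24 without the Plekhh1-led cluster, and the Myh1 value −0.62 without the type I-like cluster. In Myh7 nuclei the libraries could not be separated for Fbxo32 at this depth.

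**Figure D1:**
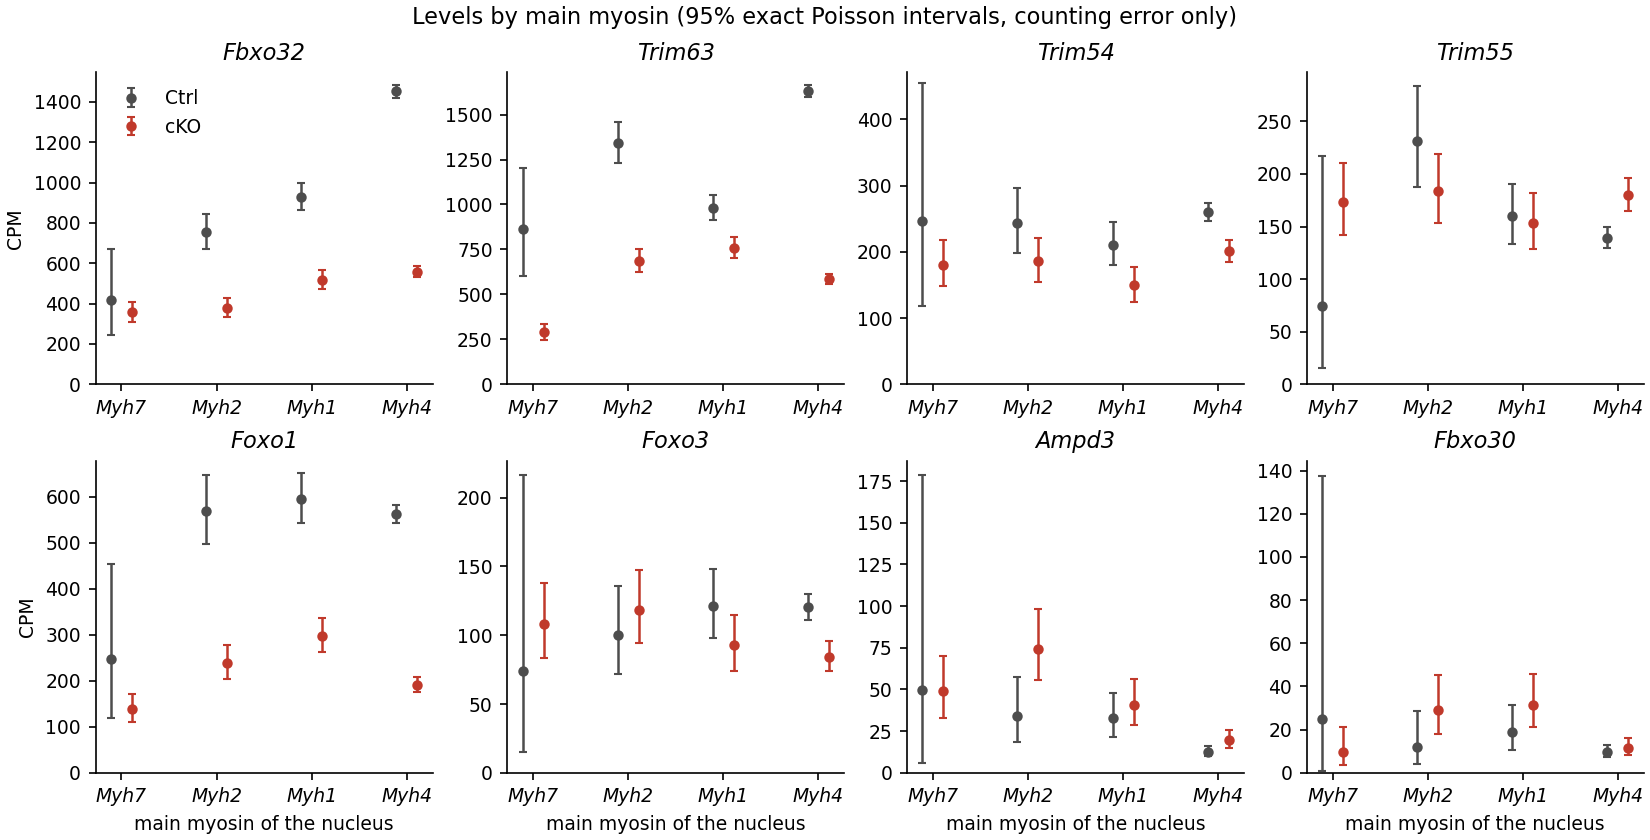
Levels of 8 of the 9 genes in CPM (y axis, from 0) by main myosin of the nucleus (x axis) in Ctrl (grey) and cKO (red), where points are CPM of the summed UMIs of 1 library and bars are 95% exact Poisson intervals for counting error. Trim63 was highest in Myh4 nuclei in Ctrl (1630 CPM) and in Myh1 nuclei in cKO (761 CPM), while Ampd3 was lowest in Myh4 nuclei in either library (12.7 and 19.8 CPM).

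For Trim63 the order of the fast fiber types was reversed between the libraries, in classes whose nuclei lay in the 2 clusters above to different degrees. In Ctrl it was at 1630 CPM in Myh4 nuclei (1596 to 1665), 1342 in Myh2 nuclei (1232 to 1459), 982 in Myh1 nuclei (914 to 1054) and 865 in Myh7 nuclei (602 to 1203). In cKO it was at 761 CPM in Myh1 nuclei (704 to 820), 687 in Myh2 nuclei (626 to 752), 585 in Myh4 nuclei (558 to 613) and 288 in Myh7 nuclei (247 to 334). Myh4 nuclei, the highest class of Ctrl, were thus below both Myh1 and Myh2 nuclei in cKO. The log2 ratio of Myh1 over Myh4 nuclei was −0.73 for the Ctrl library (−0.84 to −0.62) and 0.38 for the cKO library (0.25 to 0.51). The log2 ratio of Myh2 over Myh4 nuclei was −0.28 for the Ctrl library (−0.41 to −0.16) and 0.23 for the cKO library (0.08 to 0.38). Both kept their sign in each of the 10 alternatives run per library, with the Myh1 ratio between −0.90 and −0.62 in Ctrl and between 0.25 and 0.49 in cKO. Without the type I-like cluster the Myh1 ratio was −0.75 in Ctrl and 0.42 in cKO, and without the Plekhh1-led cluster it was −0.62 in Ctrl. The Myh2 ratio lay between −0.31 and −0.16 in Ctrl and between 0.12 and 0.42 in cKO, and after thinning its cKO interval included 0. With classes from the thinned UMIs, the intervals of the Myh1 ratio in cKO (0.37, −0.10 to 0.82) and of the Myh2 ratio in Ctrl (−0.16, −0.64 to 0.30) included 0 as well. Of neighbors in the order, Myh1 and Myh7 nuclei overlapped in Ctrl, and Myh1 and Myh2 nuclei overlapped in cKO. As ratios of cKO over Ctrl, Trim63 stood at −1.48 in Myh4 nuclei (−1.55 to −1.40), −0.97 in Myh2 nuclei (−1.15 to −0.79), −0.37 in Myh1 nuclei (−0.52 to −0.22) and −1.58 in Myh7 nuclei (−2.11 to −1.02).

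Trim54 was lowest in Myh1 nuclei in both libraries before thinning. In Ctrl it lay between 211 CPM in Myh1 nuclei and 260.1 CPM in Myh4 nuclei, and in cKO between 149 CPM in Myh1 nuclei and 201 CPM in Myh4 nuclei. Myh1 over Myh4 nuclei gave a Ctrl log2 ratio of −0.30 (−0.54 to −0.07) and a cKO log2 ratio of −0.43 (−0.71 to −0.16), or −0.66 (−1.33 to −0.05) and −0.38 (−0.97 to 0.18) after thinning to 500 UMIs, and −1.65 and −1.69 with classes from the thinned UMIs. The intervals of the Myh2 and Myh7 classes over Myh4 nuclei included 0. After thinning with the classes kept, Myh1 nuclei were lowest in neither library, though the intervals overlapped. Over Myh4 nuclei, Myh2 nuclei of Ctrl were then at −0.68 (−1.61 to 0.12) and Myh7 nuclei of cKO at −0.45 (−1.16 to 0.20). Trim55 had its highest Ctrl level in Myh2 nuclei, at 232 CPM (187 to 283), against 139 CPM in Myh4 nuclei (130 to 150). This order did not hold after thinning, where the log2 ratio of 0.73 became −0.17 (−1.20 to 0.72), or −1.35 (−4.46 to 0.62) with classes from the thinned UMIs, and where 6.02% of Myh2 and 7.33% of Myh4 nuclei had a UMI. In cKO the 4 classes lay between 154 and 184 CPM with overlapping intervals. The cKO level of Trim55 was higher than that of Ctrl in Myh4 nuclei, with a log2 ratio of 0.37 (0.20 to 0.53), and the intervals included 0 in the Myh7, Myh2 and Myh1 classes. After thinning the Myh4 value was 0.21 (−0.16 to 0.56), or 0.04 (−0.64 to 0.74) with classes from the thinned UMIs, so that difference was not detectable there. Fbxo30 had at most 52 UMIs in any class of either library. In Ctrl Myh1 nuclei it was at 18.9 CPM and in Myh4 nuclei at 9.68 CPM, and in cKO at 31.6 and 11.6 CPM. The cKO log2 ratio of these classes, 1.45, was 0.49 (−2.06 to 2.54) after thinning and −0.28 (−5.90 to 3.06) with classes from the thinned UMIs, so its direction was not stable at this depth.

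Foxo1 did not follow the order of the ligases in Ctrl. It was at 568 CPM in Myh2 nuclei (498 to 646), 595 in Myh1 nuclei (542 to 651) and 562 in Myh4 nuclei (542 to 582), and these intervals overlapped. Without the Plekhh1-led cluster, Myh1 over Myh4 nuclei gave a Ctrl log2 ratio of 0.24 (0.09 to 0.38), against 0.08 with it. Myh7 nuclei held 247 CPM (119 to 454), from 10 UMIs. In cKO, Myh1 nuclei were highest at 297 CPM (262 to 335), followed by Myh2 nuclei at 238 (203 to 278), Myh4 nuclei at 191 (175 to 207) and Myh7 nuclei at 139 (111 to 172). The log2 ratio of cKO over Ctrl was −1.56 in Myh4 nuclei (−1.69 to −1.43), −1.25 in Myh2 nuclei (−1.55 to −0.96) and −1.001 in Myh1 nuclei (−1.22 to −0.78). In Myh7 nuclei it was −0.83 (−1.78 to 0.28). For Trim63, Myh1 nuclei had the ratio nearest to 0 of the 3 fast classes, with an interval that did not overlap that of Myh2 nuclei. These intervals did overlap with classes from the thinned UMIs, at −0.33 (−0.92 to 0.27) in Myh1 and −1.31 (−1.99 to −0.64) in Myh2 nuclei. With the classes kept, the thinned Trim63 ratio of Myh1 nuclei was −0.24 (−0.58 to 0.10). The intervals of Myh1 and Myh2 nuclei overlapped for Fbxo32 and Foxo1, and their order turned for each of these genes in an alternative. With classes from the thinned UMIs, Fbxo32 was at −1.08 (−1.70 to −0.48) in Myh1 and −0.68 (−1.51 to 0.16) in Myh2 nuclei. Without the type I-like cluster, Foxo1 was at −1.74 (−2.07 to −1.42) in Myh1, −1.51 (−1.88 to −1.14) in Myh2 and −1.64 (−1.79 to −1.51) in Myh4 nuclei, and Myh1 over Myh4 nuclei of cKO, a log2 ratio of 0.64, came to −0.0043 (−0.33 to 0.31).

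Foxo3 was lower in cKO in Myh4 nuclei, with a Ctrl level of 120 CPM (111 to 130) and a cKO level of 84.3 CPM (74.1 to 95.5), a log2 ratio of −0.51 (−0.73 to −0.30). After thinning this ratio was −0.37 (−0.85 to 0.10), or −0.67 (−1.57 to 0.22) with classes from the thinned UMIs, so both intervals included 0. In the other 3 classes the intervals of Foxo3 included 0, with log2 ratios of −0.39 in Myh1, 0.24 in Myh2 and 0.55 in Myh7 nuclei. Foxo4 had 20 UMIs in Ctrl and 8 in cKO in the Myh4 class and at most 1 UMI in each of the other 3.

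Ampd3 had its lowest level in Myh4 nuclei in both libraries, where Fbxo32 of Ctrl had its highest. Myh1 over Myh4 nuclei gave a cKO log2 ratio of 1.04, which fell to 0.33 (−0.78 to 1.31) without the type I-like cluster, so the cKO order of these classes was not separable there. In Ctrl it was at 12.7 CPM in Myh4 nuclei (9.83 to 16.0, 68 UMIs), 32.8 in Myh1 nuclei (21.4 to 48.1, 26 UMIs) and 34.2 in Myh2 nuclei (18.7 to 57.3, 14 UMIs). In cKO it was at 19.8 CPM (15.0 to 25.6), 40.7 CPM (28.5 to 56.3) and 74.5 CPM (55.5 to 98.0) in the same order, and at 49.2 CPM in Myh7 nuclei (33.2 to 70.2). The Myh7 class of Ctrl held 2 UMIs. Within Myh4 nuclei the log2 ratio of cKO over Ctrl was 0.65 (0.11 to 1.17), and within Myh2 nuclei it was 1.13 (0.25 to 2.09). The Myh2 value rests on few Ctrl UMIs and was −0.22 when the main myosin had to hold at least 80% of the myosin UMIs, and 0.03 (−2.20 to 2.66) after thinning with the classes kept. In Myh1 nuclei the interval included 0 (0.31, −0.46 to 1.10), and the value was −0.66 (−3.00 to 1.55) after thinning. Without the type I-like cluster it included 0 in all 3 fast classes, at 0.44 in Myh4 (−0.17 to 1.03), 0.66 in Myh2 (−0.52 to 1.93) and −0.60 in Myh1 nuclei (−1.81 to 0.53). None of these 4 classes reached the 1.18 of all myonuclei, but the log2 ratio was 1.09 (0.19 to 2.08) in nuclei with mixed myosins and 1.25 (0.56 to 2.00) in nuclei with too few myosin UMIs.

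**Figure D2:**
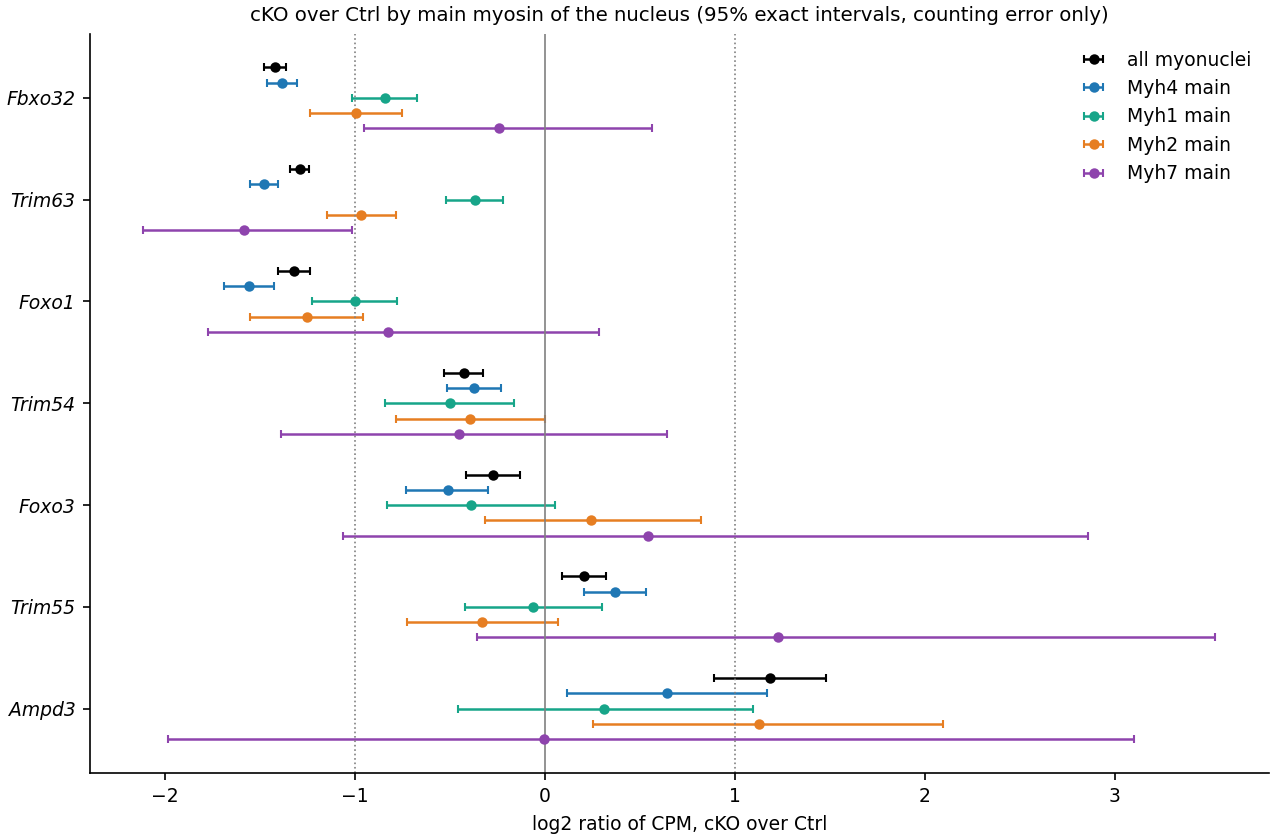
Log2 ratios of cKO over Ctrl CPM (x axis) for 7 of the 9 genes (y axis), over all myonuclei (black) and within nuclei of each main myosin (colors), with 95% exact intervals for counting error and dotted lines at a 2-fold difference. Fbxo32, Trim63 and Foxo1 lie furthest to the left in Myh4 nuclei among the fast classes, and Trim63 lies nearest to 0 in Myh1 nuclei at −0.37.

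Counted within a class, the genes past 2-fold in cKO were as follows. In Myh4 nuclei, 3 of 8 measured genes were lower (Fbxo32, Trim63 and Foxo1), where 2.5% of 7728 genes were, and none was higher, where 1.75% were. In Myh1 nuclei, 1 of 7 was lower (Foxo1), where 2.73% of genes were, and none was higher, where 2.4% were. In Myh2 nuclei, 1 of 7 was lower (Foxo1, background 3.11%) and 1 was higher (Ampd3, background 1.68%). In Myh7 nuclei, 1 of 6 was lower (Trim63) and 1 higher (Trim55, with 3 UMIs in Ctrl), where the background was 9.26% and 12.8%. In nuclei with mixed myosins, 1 of 7 was lower (Fbxo32, background 3.11%) and 1 higher (Ampd3, background 3.33%). In nuclei with too few myosin UMIs, 3 of 7 were lower (Fbxo32, Trim63 and Foxo1, background 6.57%) and 1 higher (Ampd3, background 4.82%). The Foxo1 value of Myh1 nuclei lay at the 2-fold line itself.

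Fbxo32, Trim63 and Foxo1 were lower in junctional nuclei than in the other myonuclei of Ctrl, and at the myotendinous junction Fbxo32 and Trim63 were lower in cKO as well. Whether these differences themselves differed between the libraries was not tested. The neuromuscular junction-like cluster had 34 Ctrl and 37 cKO nuclei and 11 detected markers, among them Chrne, Ache and Etv5. The myotendinous junction-like cluster had 104 Ctrl and 87 cKO nuclei and 8 detected markers, among them Col22a1 and Tigd4. In neuromuscular junction-like nuclei of Ctrl, Fbxo32 was at 706 CPM (547 to 896) and Trim63 at 632 CPM (482 to 813), against 1376 and 1542 CPM in the other myonuclei. The log2 ratios to the other myonuclei were −0.96 for Fbxo32 (−1.33 to −0.62), −1.29 for Trim63 (−1.68 to −0.92) and −0.80 for Foxo1 (−1.35 to −0.30). In cKO, Fbxo32 was at 434 CPM and Trim63 at 508 CPM at the neuromuscular junction, against 503 and 625 CPM elsewhere. The log2 ratios there were −0.21 for Fbxo32 (−0.74 to 0.27), −0.30 for Trim63 (−0.78 to 0.14) and 0.03 for Foxo1 (−0.70 to 0.68), so no difference from the other myonuclei was detectable at this depth. The cKO over Ctrl ratio of Trim63 within these nuclei was −0.31 (−0.92 to 0.28), from 60 and 41 UMIs.

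In myotendinous junction-like nuclei, Fbxo32 was again below the other myonuclei in Ctrl, and Trim55 was below them in Ctrl only. Fbxo32 had a Ctrl level of 628 CPM (547 to 718) and a cKO level of 398 CPM (317 to 494), and its log2 ratio to the other myonuclei was −1.13 for the Ctrl library (−1.33 to −0.94) and −0.34 for the cKO library (−0.67 to −0.02). Trim63 had a Ctrl level of 1183 CPM (1071 to 1305) and a cKO level of 471 CPM (382 to 574), with log2 ratios of −0.38 (−0.53 to −0.24) and −0.41 (−0.72 to −0.12), so it lay closer to the other myonuclei than Fbxo32 in Ctrl. In cKO the intervals of the 2 genes overlapped. Over 9 alternatives their cKO ratios lay between −0.94 and −0.30 for Fbxo32 and between −0.46 and −0.17 for Trim63. Trim55 had a Ctrl level of 64.6 CPM (40.5 to 97.8, 22 UMIs) and a cKO level of 180 CPM (126 to 247, 37 UMIs). This was below the other myonuclei in Ctrl (155 CPM, log2 ratio −1.26, −1.94 to −0.66) and level with them in cKO (173 CPM, 0.06, −0.46 to 0.53). The Ctrl ratio of Trim55 rests on those 22 UMIs and lay between −1.42 and −0.69 over 9 alternatives. Foxo1 had a Ctrl level of 341 CPM and a cKO level of 209 CPM. Its Ctrl log2 ratio to the other myonuclei was −0.79, and over 9 alternatives it lay between −0.86 and −0.42. The intervals of Trim54 and Foxo3 relative to the other myonuclei included 0 at both junctions in either library, with log2 ratios of −0.05 to 0.41 for Trim54 and 0.14 to 0.41 for Foxo3. Ampd3 had 2 UMIs in Ctrl and 11 in cKO at the myotendinous junction, and 1 and 0 UMIs at the neuromuscular junction, where the 0 UMIs allow up to 3 counts of 80667 UMIs, a fixed floor in place of the exact interval. Of 8 measured genes, 1 was past 2-fold below the other myonuclei at the Ctrl neuromuscular junction (Trim63, background 21.7%) and 3 at the Ctrl myotendinous junction (Fbxo32, Trim55 and Ampd3, background 12.3%). Ampd3 is counted there from 2 UMIs, and its log2 ratio of −1.73 had an interval that included 0 (−4.79 to 0.15). In cKO none was past 2-fold below at the myotendinous junction (background 16.9%). At the cKO neuromuscular junction the count of 1 (background 23.4%) was Ampd3 with 0 UMIs, and at the floor of 3 counts it was not past 2-fold, so no gene could be placed below the other myonuclei there. Between the libraries, none of 3 measured genes was past 2-fold at the neuromuscular junction, where 3.09% of genes were lower and 2.06% higher in cKO. At the myotendinous junction 1 of 6 was lower (Trim63, background 3.3%) and 1 higher (Trim55, background 1.78%).

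**Figure D3:**
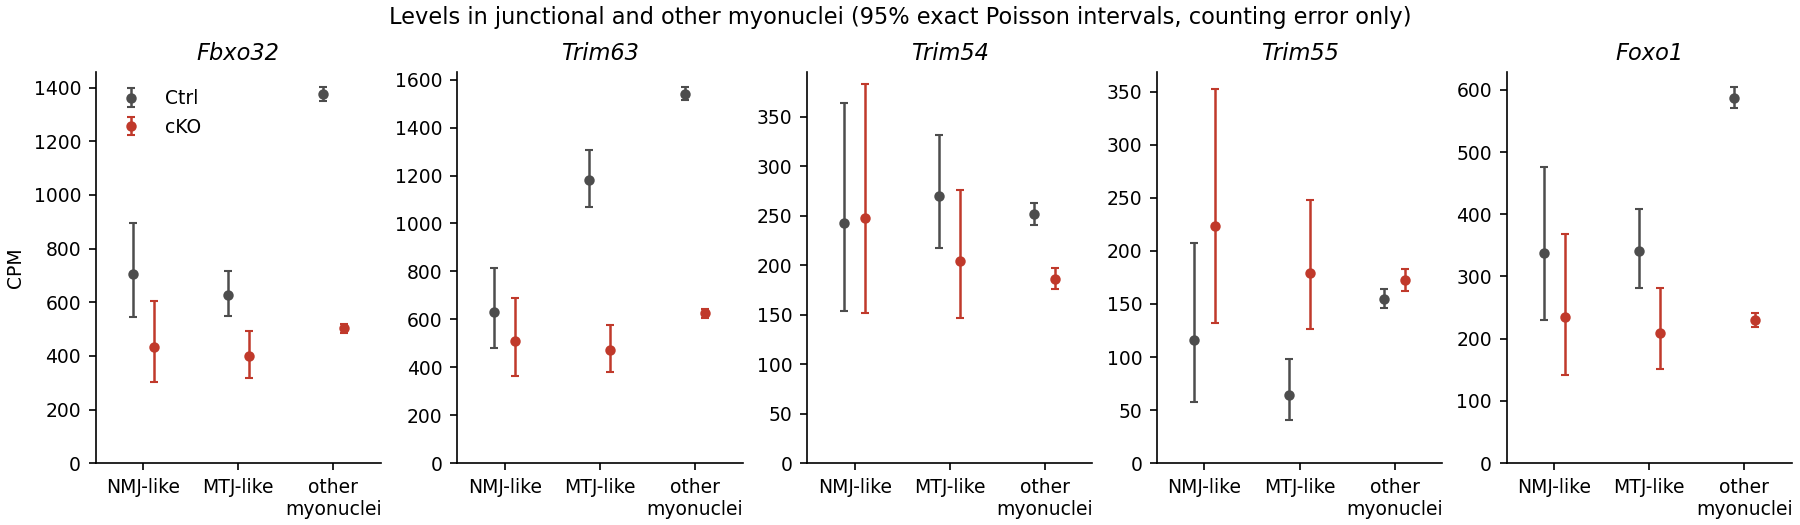
CPM (y axis, from 0) of 5 genes in neuromuscular junction-like (NMJ-like), myotendinous junction-like (MTJ-like) and other myonuclei (x axis) of Ctrl (grey) and cKO (red), with 95% exact Poisson intervals for counting error. Fbxo32 and Foxo1 of Ctrl were lower in both kinds of junctional nuclei than in the other myonuclei, and Trim55 in MTJ-like nuclei had a Ctrl level of 64.6 CPM and a cKO level of 180 CPM.

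A small cluster led by Plekhh1, Tmem100 and Htra1 held the highest levels of both ligases. It had 184 Ctrl and 23 cKO nuclei, met the markers of no cell type, and was absent when the 9 genes were left out of clustering and at the coarser resolution of 0.1, but present at 0.5. The 9 genes took part in forming it, so its high levels are a description. In Ctrl it held Fbxo32 at 3803 CPM, Trim63 at 3526 CPM and Foxo1 at 1579 CPM, and in cKO at 1723, 3339 and 592 CPM. Fbxo32 and Foxo1 were thus lower in the cKO nuclei of the cluster, with log2 ratios of −1.14 (−1.41 to −0.88) and −1.41 (−1.89 to −0.97), while Trim63 was nearly level at −0.08 (−0.28 to 0.12). Ampd3 had 19 UMIs in either library there, or 44.2 and 256 CPM. Without the cluster, the log2 ratios over all myonuclei were −1.30 for Fbxo32, −1.25 for Trim63 and −1.19 for Foxo1. The difference between the libraries was therefore present in the other myonuclei as well. The paper describes a remodeling population of myonuclei with high Trp63, Fbxo32 and Trim63. Whether the Plekhh1-led cluster matches that population was not tested.

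Over the Ctrl myonuclei together, Fbxo32 and Trim63 tended to be high in the same nuclei, and in cKO hardly so. Over 2984 Ctrl myonuclei, the Pearson correlation of Fbxo32 and Trim63 on the scale of log1p of counts per 10000 was 0.251 (Spearman 0.267), and over 3290 cKO myonuclei it was 0.077 (Spearman 0.069). These nuclei share a library, its depth and its free RNA, and both genes had fewer UMIs in cKO, so the coefficients are descriptions. After thinning they were 0.138 and 0.016. Within Myh4 nuclei they were 0.219 (n = 1910) and 0.019 (n = 1423), and outside the Plekhh1-led cluster 0.194 and 0.061. Fbxo32 and Foxo1 correlated at 0.191 in Ctrl and 0.016 in cKO, and Trim63 and Foxo1 at 0.108 and 0.073. The other 33 pairs of the 9 genes lay between −0.021 and 0.062 in Ctrl and between −0.024 and 0.070 in cKO, which in counts this sparse is no finding.

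In thinned Ctrl myonuclei the share with a Trim63 UMI was higher where more Fbxo32 UMIs were seen. It was 41.9% (39.6 to 44.3) of 1712 nuclei without Fbxo32, 52.9% (49.4 to 56.5) of 784 nuclei with 1 UMI, 53.7% (48.0 to 59.4) of 309 nuclei with 2, and 61.5% (53.9 to 68.6) of 179 nuclei with 3 or more. In cKO it was 22.6% (21.0 to 24.2) of 2603 nuclei without Fbxo32, 23.9% (20.4 to 27.7) of 544 nuclei with 1 UMI, 23.3% (15.9 to 32.0) of 116 nuclei with 2, and 22.2% (8.62 to 42.3) of 27 nuclei with 3 or more. The cKO shares differed by less than their intervals. Both ligases were detected together in 23.2% of thinned Ctrl myonuclei (21.7 to 24.7), where the product of their shares was 20.1%, and in 4.95% of cKO myonuclei (4.24 to 5.75), where it was 4.76%. By class, the joint share in Ctrl was 26.0% of Myh4 nuclei (24.1 to 28.1, product 23.3%) and 14.3% of Myh1 nuclei (10.5 to 18.8, product 9.43%). It was 14.5% of Myh2 nuclei (9.49 to 20.7, product 14.9%), so the Ctrl pattern was not seen in that class.

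**Figure D4:**
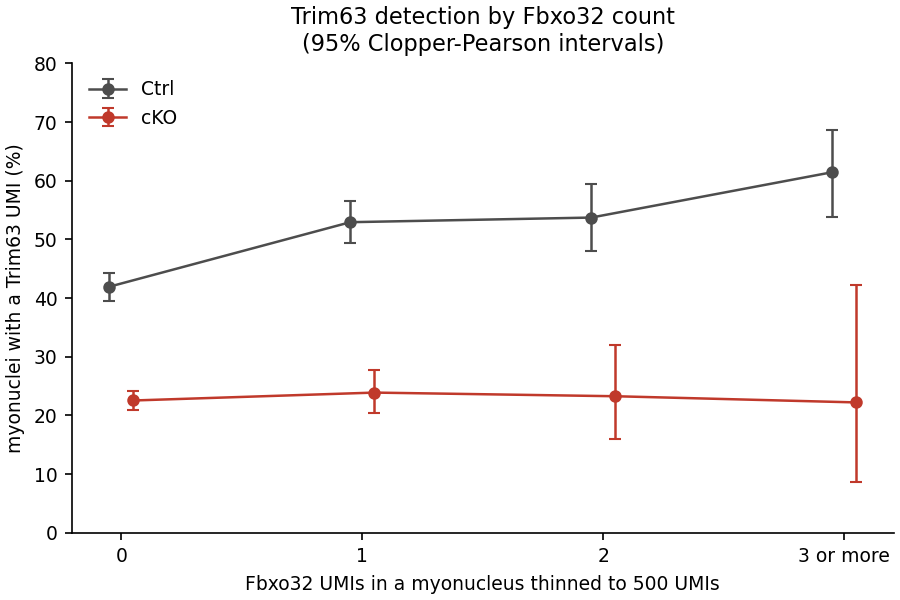
Percent of myonuclei with at least 1 Trim63 UMI (y axis) by the number of Fbxo32 UMIs in the same nucleus (x axis), each nucleus thinned to 500 UMIs, in Ctrl (grey) and cKO (red), with 95% Clopper-Pearson intervals. The Ctrl share was 41.9% without Fbxo32 and 61.5% with 3 or more UMIs, and the cKO shares lay between 22.2% and 23.9%.

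The genes most like the members over nuclei were ranked by the mean Pearson correlation of both libraries among 3705 genes. All of these correlations were weak. For Fbxo32 the nearest were the noncoding RNA Gm26740 (0.252 in Ctrl and 0.124 in cKO), Trim63, Pcca (0.261 and 0.048), which encodes a subunit of propionyl-CoA carboxylase, the phosphodiesterase gene Pde4d and the nuclear receptor gene Rora. For Trim63 they were Fbxo32, Pcca, Gm26740, the histone deacetylase gene Hdac4 (0.173 and 0.065) and Enox2. For Foxo1 they were the kinase gene Dapk2 (0.126 and 0.129), Hdac4, Pcca, 5730419F03Rik and Fbxo32. Trim63 ranked 12 for Foxo1 and Foxo1 ranked 15 for Trim63, whereas Trim54 ranked 2177 and Trim55 ranked 1313 for Fbxo32. For Ampd3 the nearest were 5730419F03Rik (0.129 and 0.134), Gm28653, the M-band gene Myom3, the p53 ligase gene Mdm2 and the actin-binding gene Ablim1, and for Foxo3 they were 5730419F03Rik, Atrx, Ldlrad3, Zfp407 and Nfe2l2, all with means under 0.06.

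In nuclei from outside the fibers the Foxo factors and the ligases were set against genes of the contractile fiber. Fibro-adipogenic progenitor (FAP)-like nuclei (322 in Ctrl and 152 in cKO, with 10 detected markers such as Pdgfra and Col3a1) should lack such genes. In FAP-like nuclei 8 of them, including Myh4, Ttn and Neb, stood at 0.317 to 0.547 of their myonuclear level in Ctrl and at 0.306 to 0.572 in cKO. Fbxo32 stood at 0.339 and 0.288 and Trim63 at 0.309 and 0.232, within or below that range, so their FAP-like levels (452 and 144 CPM, and 468 and 144 CPM) are read as background. Foxo3 was at 350.3 CPM in Ctrl FAP-like nuclei (306 to 399) and 193 CPM in cKO (143 to 253), which was 2.90 and 1.93 times its myonuclear level. Foxo1 was at 518 CPM (463 to 577) and 351 CPM (284 to 431), or 0.903 and 1.53 times its myonuclear level. Both factors stood above the FAP-like range of the fiber genes. In endothelial-like nuclei the 8 fiber genes stood higher, at 0.591 to 1.09 of their myonuclear level in Ctrl and 0.690 to 1.16 in cKO. There Foxo1 lay within that range, at 0.683 and 1.05, and Foxo3 above it, at 1.49 and 1.23. Fbxo32 stood at 0.506 and 0.911 and Trim63 at 0.503 and 0.841, below the range in Ctrl and within it in cKO. Foxo3 was detected in 19.9% of thinned Ctrl FAP-like nuclei (15.7 to 24.7) and 5.496% of thinned Ctrl myonuclei (4.71 to 6.38), at unthinned median depths of 1321.5 and 2141.5 UMIs. In cKO the shares were 7.89% (4.15 to 13.4) and 4.71% (4.01 to 5.49), and their intervals overlapped. Between the libraries, the FAP-like levels gave log2 ratios of −0.86 for Foxo3 (−1.33 to −0.42) and −0.56 for Foxo1 (−0.91 to −0.22).

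**Figure D5:**
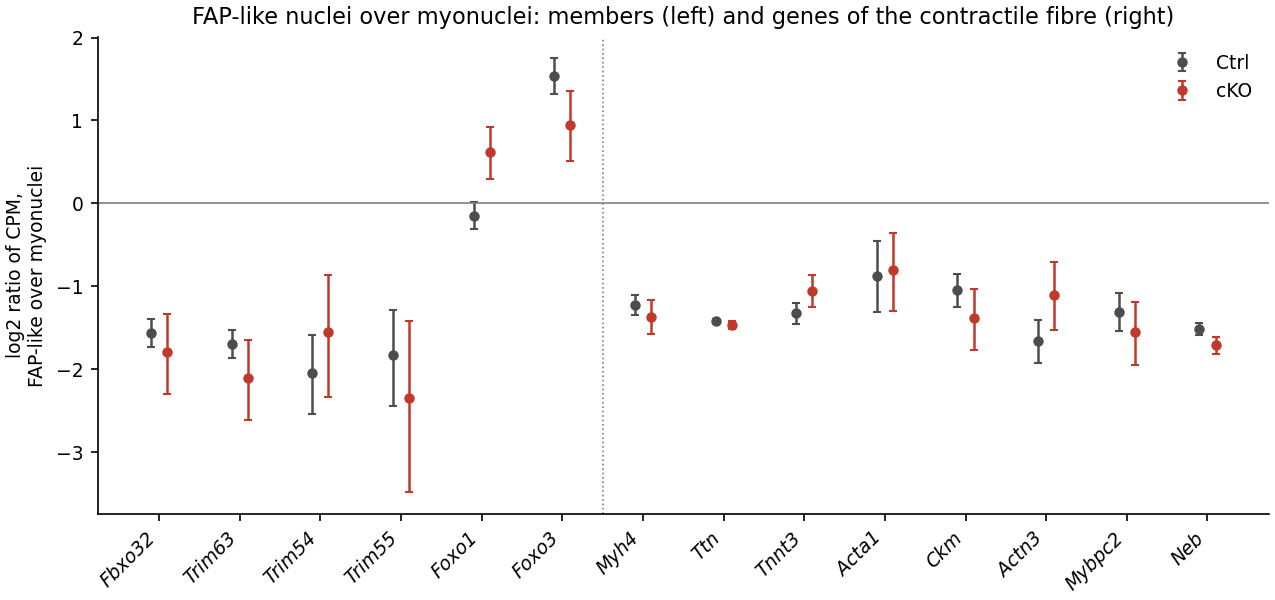
Log2 ratio of CPM in FAP-like nuclei over myonuclei of the same library (y axis) for 6 of the 9 genes (left of the dotted line) and 8 genes of the contractile fiber (right), in Ctrl (grey) and cKO (red), with 95% exact intervals for counting error. The 4 ligase genes lie near or below the fiber genes, and Foxo3 lies above 0 in either library at ratios of 2.90 and 1.93.

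The wider pathway was described from lists of known genes, over all myonuclei and against the same background of 3.21% of genes higher and 3.16% lower past 2-fold. Of 27 measured other muscle ubiquitin ligases, none was past 2-fold in either direction, and their median log2 ratio was −0.11. The ones furthest from 0 were all higher in cKO, namely Trim72, which takes part in membrane repair, with a Ctrl level of 4.84 CPM and a cKO level of 9.64 CPM (0.99, 0.39 to 1.61), Klhl41 at 62.8 and 112 CPM (0.83, 0.67 to 1.00), Klhl40, which stabilizes thin filament proteins, at 43.2 and 75.5 CPM (0.81, 0.60 to 1.01), and Mdm2 at 41.0 and 71.2 CPM (0.80, 0.59 to 1.00). Asb2, a subunit of a cullin ligase, had a Ctrl level of 1130 CPM and a cKO level of 721 CPM, a log2 ratio of −0.65 (−0.70 to −0.60). The muscle F-box gene Fbxo40 was at 257 and 225 CPM (−0.19, −0.29 to −0.10). Asb2 and Fbxo40 were named after their values were seen, as were Gadd45a and Gabarapl1 among the Foxo targets and Klf15 and Nr3c1 below.

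Of 26 measured Foxo target and atrophy genes, 3 were past 2-fold higher and 3 lower in cKO, with a median of −0.02. The higher ones were Sesn3, a sestrin that restrains mTORC1, with a Ctrl level of 7.01 CPM and a cKO level of 43.8 CPM (2.64, 2.22 to 3.09), the insulin receptor substrate gene Irs2 at 51.1 and 136 CPM (1.41, 1.24 to 1.58), and Gabarapl1, a gene of autophagosome formation, at 8.16 and 16.8 CPM (1.04, 0.58 to 1.51). The lower ones were Pdk4, the kinase that inhibits pyruvate dehydrogenase, at 637 and 140.0 CPM (−2.18, −2.29 to −2.08), Gadd45a at 8.41 and 3.26 CPM (−1.37, −2.13 to −0.65), and the autophagy gene Map1lc3a at 6.50 and 2.23 CPM (−1.55, −2.48 to −0.69). Known targets thus differed in both directions. Of 25 measured regulators of Foxo, 2 were higher (Irs1, at 171 and 371 CPM, and Irs2) and 2 lower (the kinase gene Sgk1, at 178 and 73.6 CPM, and the myostatin gene Mstn, at 21.8 and 10.7 CPM), with a median of −0.13.

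Of 10 measured glucocorticoid-responsive genes, 4 were lower past 2-fold and none higher, with a median of −0.77 against −0.08 over all genes. Fkbp5, a chaperone of the receptor, had a Ctrl level of 508 CPM and a cKO level of 19.0 CPM (−4.74, −5.01 to −4.49), and the transcription factor gene Zbtb16 was at 2866 and 1059 CPM (−1.44, −1.47 to −1.40). The other lower genes were Sgk1 and Pdk4, which also stand on the lists above. Klf15 was at 26.4 and 23.1 CPM (−0.19, −0.50 to 0.12), and the receptor gene Nr3c1 at 303 and 261 CPM (−0.21, −0.30 to −0.12). Of 8 measured denervation genes, 3 were lower (Myod1, Gadd45a and Myh8) and none higher, with a median of −0.62. Myod1, a myogenic transcription factor gene, was at 9.81 and 3.56 CPM (−1.46, −2.19 to −0.79), the perinatal myosin gene Myh8 had 35 and 15 UMIs, and the adhesion gene Ncam1 was at 80.9 and 158 CPM (0.97, 0.83 to 1.11). Myh8 stood just at the minimum of 50 UMIs, and just under it the embryonic myosin gene Myh3, named after its values were seen, had 9 Ctrl and 38 cKO UMIs, a log2 ratio of 2.30 (1.22 to 3.53). Of 10 measured purine nucleotide enzyme genes, 1 was lower (Xdh, with 48 and 7 UMIs) and none higher, with a median of −0.01. Nt5c2, a nucleotidase gene, was at 25.5 and 42.9 CPM (0.75, 0.49 to 1.02), and Hprt, of purine salvage, at 10.96 and 16.3 CPM (0.57, 0.15 to 1.00). Ampd1, the AMP deaminase gene of fast muscle, had a Ctrl level of 1451 CPM and a cKO level of 1119 CPM (−0.37, −0.42 to −0.33), so the 2 deaminase genes differed in opposite directions between the libraries.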

How the data were processed

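Nuclei of GP muscle were sequenced as 1 Ctrl and 1 cKO 10x library. The sample labels name kit v2 and the methods v3.1. The values are UMI counts per gene and barcode that the authors deposited after Cell Ranger 3.1.0 on mm10, per the submitters' processing notes, run at its default settings per the methods. That version counts reads on the exons of the annotation it is given, and whether this was a pre-mRNA annotation was not given in the sources used here. Barcodes with at least 500 UMIs, at least 100 genes and at most 10% mitochondrial UMIs were kept (3833 Ctrl, 3908 cKO). Scrublet (scanpy 1.11.5) called 0 doublets, so the 8% with the highest scores were removed, a choice made after that outcome. Libraries were integrated and clustered with Seurat 5.3.0 and sctransform 0.4.2 in R 4.3.3 (3000 features, 25 dimensions, resolution 0.3), and clusters were named from marker lists. UMIs were summed per class and divided by the class total. Exact Poisson, conditional binomial and Clopper-Pearson intervals at 95% came from scipy 1.17.1 (Python 3.11.15, numpy 2.4.6, pandas 2.3.3, matplotlib 3.10.9). No test was run, since each group had 1 library. Past 2-fold counts used genes with at least 50 UMIs over both sides. The calculations were tested on simulated data. Coordinates are GRCm38 and promoter sequences are from RefSeq (GRCm38.p6).

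All 9 genes were named. So were the 5 genes most correlated with each of Fbxo32, Trim63, Ampd3, Foxo1 and Foxo3, among genes seen in at least 5% of myonuclei of each library, and up to 4 genes per pathway list with the largest absolute log2 ratio. The genes and lists were chosen with earlier results of these data known. Alternatives covered scaling, thinning, doublets, the UMI minimum, clustering, main myosin thresholds and the choice of nuclei.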

Additional observations from a re-analysis of the deposited data

How the results depend on the processing

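No paired analysis was possible because each group had 1 library, so no replicate could be left out either. Of 1444 alternative values, 1309 stayed within counting error or, for counts, within 1.5 times, 133 moved further, and 2 that had been past 2-fold reversed. Of 1244 alternative log2 ratios 79 turned sign, 9 of them where the interval had excluded 0. Besides the 2 reversed ones these were Trim55 in Ctrl (−1.35 and −0.17) and Foxo1 in cKO (−0.08) for Myh2 over Myh4 nuclei under thinning, Trim54 of cKO over Ctrl in Myh2 (0.54) and Myh1 nuclei (0.08) under thinning with the classes kept, and, without the type I-like cluster, Foxo1 in cKO for Myh1 (−0.0043) and Myh7 over Myh4 nuclei (1.50, from 2 Myh7 nuclei). Over all myonuclei, Fbxo32, Trim63 and Foxo1 stayed lower past 2-fold in each of the 13 alternatives. With Malat1 and mitochondrial genes left out of the total, the log2 ratios were −1.32, −1.19 and −1.23 in this order, the count of genes lower past 2-fold was 0 in Myh1 nuclei and 2 at the Ctrl neuromuscular junction. With median of ratios scaling Fbxo32 was at −1.34 and Trim63 at −1.21. With the mean of each nucleus's own CPM, Trim63 was at −1.37, counts of genes higher in cKO were 0 over all myonuclei and in Myh7 and Myh2 nuclei, and counts of lower genes were 2 in Myh7 nuclei and 2 at the neuromuscular junction of either library. Over all nuclei, Fbxo32 was at −1.36, Trim63 at −1.23 and Foxo3 at −0.44, the counts were 0 higher in Myh7 and 0 lower in Myh1 nuclei, and the Ctrl correlation of Fbxo32 and Trim63 was 0.377. Thinned to 500 UMIs, Trim63 was at −1.36, Trim54 at −0.16 and Ampd3 at 0.72, the counts were 0 higher over all myonuclei and in Myh7 and Myh2 nuclei, 0 lower in Myh7 nuclei and 2 lower at the Ctrl neuromuscular junction, the correlation was 0.138, and Fbxo30 in cKO reversed to −0.28 in Myh1 over Myh4 nuclei. With the class shares of Ctrl, Fbxo32 was at −1.33 and Ampd3 at 0.80, with 0 genes higher. With doublets kept or at least 1000 UMIs per nucleus, 2 genes were lower in Myh2 nuclei. With a main myosin of at least 80%, Myh2 nuclei had 0 higher and 3 lower genes and Ampd3 reversed to −0.22, and with at least 5 myosin UMIs they had 0 higher and 2 lower. With junctions taken from marker UMIs, 0 genes were lower at the cKO neuromuscular junction and 1 at the Ctrl myotendinous junction. Leaving out a cluster mostly of 1 library and thinning with the classes kept were chosen after seeing the data. The latter left 0 genes higher in Myh7 nuclei and 0 higher and 2 lower in Myh2 nuclei. Without the Plekhh1-led cluster Fbxo32 was at −1.30 and Foxo1 at −1.19. Without the type I-like cluster Fbxo32 was at −1.26, Trim63 at −1.18, Trim55 at 0.35, Foxo1 at −1.60, Foxo3 at −0.46 and Ampd3 at 0.63, with 0 genes higher, 0 higher in Myh2 nuclei, and 0 past 2-fold in Myh7 nuclei. The causes were not tested.

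Depth limits Foxo4 (25 and 11 UMIs), the Ctrl Myh7 class (19 nuclei), the cKO Plekhh1-led cluster (23 nuclei) and both junctional clusters. The spread between mice is unknown, so a difference between the libraries and a difference between the genotypes cannot be told apart, and the shares of fiber types differed between them as well.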
